A study of Magallana angulata with 8 samples.

Results

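Of the 25647 oyster genes in the table, 11 had a best protein match described as a superoxide dismutase (SOD) or as the copper chaperone of one, and all 11 are described here. 5 were annotated as extracellular Cu-Zn SODs: OYG_10026148_10030582, OYG_10004092_10030581, OYG_10018833_10030584, OYG_10018834_10030585 and OYG_10000265_10030585. The other 6 were the mitochondrial Mn SOD OYG_10017307_10033407, the Cu-Zn SODs OYG_10017958_10041186, OYG_10025077_10028829, OYG_10021360_10007551 and OYG_10021362_10033263, and the copper chaperone for SOD OYG_10024375_10041186. Genes are named below by the first block of the identifier. With a filter of a mean of at least 1 RPKM (reads scaled to gene length and to library size) over the 8 libraries, 9 of the 11 genes and 20123 genes in all entered the tests.

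Superoxide dismutases turn superoxide, a by-product of respiration and of oxidases, into oxygen and hydrogen peroxide, which catalase, peroxidases and peroxiredoxins then remove. Cu-Zn SODs carry copper and zinc at the active site and work in the cytosol or, in the extracellular forms, after secretion, whereas the Mn form works in the mitochondrial matrix. In the Pacific oyster Crassostrea gigas an extracellular SOD is an abundant protein of the hemolymph and is made by hemocytes.

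The libraries came from adult Fujian oysters, Crassostrea angulata, 9 months old and from a single farm. Oysters of set 1 were dissected directly and were not exposed to Cu (G1 gill, M1 mantle), and those of set 2 were held in tanks, acclimated for 7 days, fed Chlorella powder and exposed to 30 µg Cu/L as CuCl2 for 30 days (G2 gill, M2 mantle). In each set, Cu was measured in 60 oysters. The 6 with the highest Cu (H) and the 6 with the lowest Cu (L) were pooled, tissue by tissue, with 1 library per condition. Exposure, tank holding, feeding and sampling time cannot be told apart, since none of these libraries came from oysters held in tanks without Cu. The labels gave tissue and Cu class, and the meaning of the sets came from the study's methods.

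The RPKM values were whole multiples of what 1 read is worth in 25181 of 25181 genes with any value. The limit was 0.02 read and grew with the number of reads at high read numbers. Gene lengths were chosen to make the reads whole, so this match was in part built in. The values implied totals of 2015375 to 2589524 reads per library. These totals are below the mapped and the uniquely mapped reads that the study lists, for a reason not known here, and the read shares, limits and intervals below rest on them. Each library had reads for 20960 to 21508 genes. The median log2 value of M2-L was -0.43 from the mean of the 8 library medians, while the other 7 libraries were within -0.02 and 0.17 of it. Summed RPKM of 38 genes for ciliary dyneins, tektins and radial spoke heads was 2773 to 4156 in the gill and 845 to 1143 in the mantle. Summed RPKM of 9 muscle genes was 760 to 1542 in the gill and 2931 to 5909 in the mantle, so these lists followed the tissue labels. The sum over 60 mantle shell-forming genes did not: it was 673 to 840 RPKM in the gill, 716 to 789 in the unexposed and 1333 to 2226 in the exposed mantle. Of the 34 genes of this list tested, 12 were higher and 7 lower in the mantle (limma, adjusted p of 0.05), beside 15.7% of all genes in either direction. Their median log2 difference, mantle minus gill, was 1.10, with 21 genes above and 13 below 0, beside a median of -0.21 over all genes.

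Of the extracellular genes, OYG_10026148 was among the most abundant transcripts of both tissues. The others ranked lower in each library, down to OYG_10000265, which was 443rd in M1-L and 6541st in G2-H and had 0 reads in G2-L. OYG_10026148 ranked first of all genes in G1-H, M1-L and M1-H, second in G1-L and 115th in G2-L. The 5 genes together took 2.63% of the reads in M1-L and 0.0619% in G2-L, the highest and the lowest share among the libraries. Their summed RPKM was 157 times that of the other 6 genes in M1-L and 4.30 times in G2-L. The other 6 genes together took between 0.0142% and 0.0340% of the reads.

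**Figure D1:**
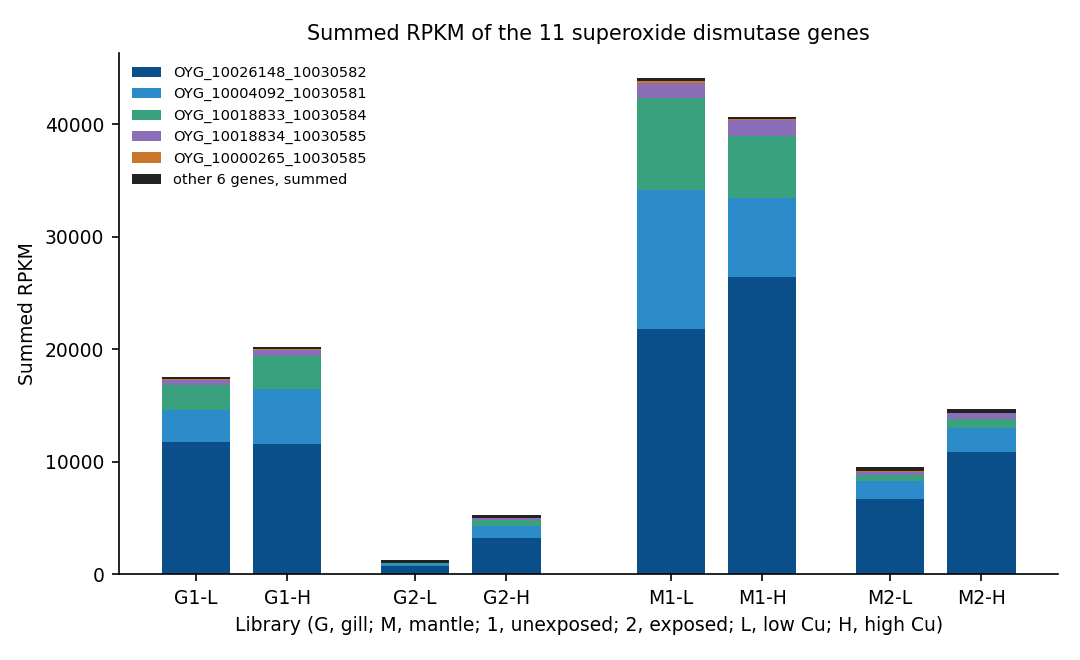
Summed RPKM of the 11 superoxide dismutase genes in each of the 8 libraries, with 1 colour for each extracellular gene and black for the other 6 genes together. The bars reach their highest value in the unexposed mantle libraries and their lowest in G2-L, where the extracellular genes summed to 1016 RPKM.

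In every library the order of the 4 most abundant extracellular genes was the same on the RPKM scale, which is per length: OYG_10026148, OYG_10004092, OYG_10018833 and OYG_10018834. The lengths implied by the read steps rest on library totals chosen to make lengths multiples of 3. That they are coding lengths was thus assumed. The 3 most abundant genes had the same implied coding length of 579 bp, against 1284 bp for OYG_10018834 and 486 bp for OYG_10000265. OYG_10026148 made up 49.8% to 75.5% of the summed extracellular RPKM. The share of OYG_10018833 was 13.03% to 18.6% in the 4 unexposed libraries and 5.21% to 10.1% in the 4 exposed ones, without overlap. The shares of each of the other extracellular genes overlapped between unexposed and exposed libraries. OYG_10018834 and OYG_10000265 had the same best protein match, as did OYG_10021360 and OYG_10021362, so the split of reads between the members of each of these pairs is uncertain.

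In the gill, OYG_10026148 had 11740 RPKM in low Cu and 11568 in high Cu oysters without exposure, against 767 and 3227 with exposure. The corresponding mantle values were 21823 and 26425 without exposure and 6666 and 10841 with it. Both exposed libraries lay below both unexposed libraries in each tissue, and each mantle library lay above the gill library of the same set and Cu class.

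OYG_10004092 had 2834 (low Cu) and 4901 (high Cu) RPKM in the unexposed gill, and 140 and 1052 in the exposed gill. Its mantle values, low Cu before high Cu, were 12313 and 7013 unexposed and 1614 and 2199 exposed. All 4 exposed libraries were below all 4 unexposed ones, and M1-L was the highest library.

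For OYG_10018833 the gill values were 2257 and 2950 RPKM without exposure and 64.6 and 506 with exposure, low Cu first. Its mantle values were 8157 and 5542 without exposure and 537 and 748 with it. Its highest library was 126 times its lowest, and the exposed libraries again did not overlap the unexposed ones.

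Gill levels of OYG_10018834 were 420 (low Cu) and 518 (high Cu) RPKM in set 1 and 43.7 and 196 in set 2. Mantle levels were 1342 and 1377 in set 1 and 304 and 504 in set 2. The exposed and unexposed libraries were apart within each tissue, but M2-H was above G1-L, so the 4 exposed and 4 unexposed libraries overlapped.

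OYG_10000265, the least abundant of the 5, had 62.2 (low Cu) and 76.8 (high Cu) RPKM in the unexposed gill. In the exposed gill it had 0 reads in G2-L, where 3 reads would have been 2.51 RPKM, and 20.7 RPKM in G2-H. Mantle values were 228 and 74.0 unexposed and 64.5 and 63.6 exposed, low Cu first. The gill values were apart by exposure, whereas in the mantle only M1-L stood well above the others.

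**Figure D2:**
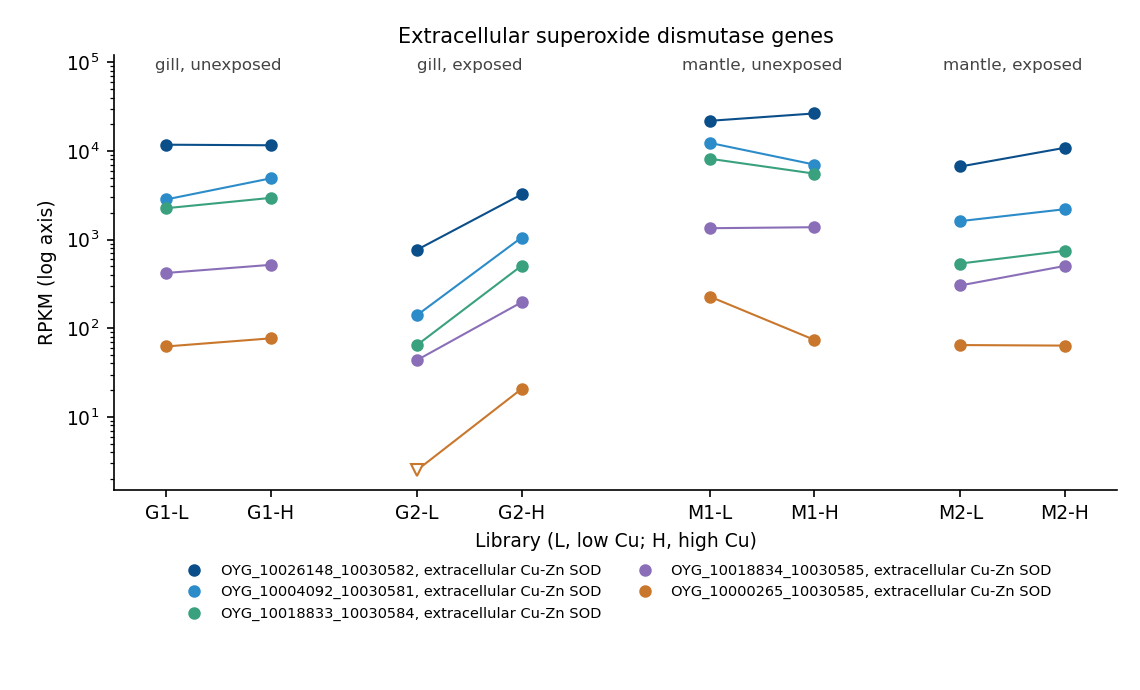
RPKM on a log axis of the 5 extracellular superoxide dismutase genes in each library, with lines joining the low and high Cu libraries of 1 tissue and set; the open triangle is the value of 3 reads for OYG_10000265 in G2-L, which had 0 reads. The 4 most abundant genes have their lowest value in G2-L.

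The tissue comparison asked whether the SOD genes differed between mantle and gill, over 4 libraries of each, with set and Cu class as covariates. OYG_10026148, OYG_10018834 and OYG_10025077, a Cu-Zn SOD with an implied coding length of 2943 bp, were higher in the mantle, so 3 of the 9 genes passed an adjusted p of 0.05 against 15.7% of all genes tested (limma with an intensity trend on log2(RPKM + 0.1), Benjamini-Hochberg over all genes). The log2 differences, mantle minus gill, were 1.74 ± 0.44 (SE; adjusted p = 0.032 by limma) for OYG_10026148, 1.81 ± 0.34 (adjusted p = 0.0090 by limma) for OYG_10018834 and 1.27 ± 0.21 (adjusted p = 0.0053 by limma) for OYG_10025077. The values for OYG_10004092 and OYG_10018833 were 1.81 ± 0.53 (adjusted p = 0.055 by limma) and 1.59 ± 0.49 (adjusted p = 0.065 by limma). In bulk tissue, fewer cells of a type and less RNA per cell cannot be told apart.

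All 5 extracellular genes and all 4 other genes tested had a positive mantle minus gill value, with a median of 1.81 and 0.26 on the log2 scale, beside -0.21 over all genes. The extracellular median was also 1.81 with OYG_10000265 set to 3 reads in G2-L. Mantle was above gill in each of the 4 matched pairs of libraries for 4 of the 5 extracellular genes and for 1 of the 4 others, beside 14.6% of all genes. The exception among the extracellular genes was OYG_10000265, whose M1-H value was below that of G1-H. The mantle over gill ratio of OYG_10026148 was 1.86 and 2.28 in the unexposed L and H pools and 8.69 and 3.36 in the exposed L and H pools.

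The study's results text describes gill and mantle pools of the same oysters, and with these 4 pools as blocks OYG_10004092 (adjusted p = 0.0499 by limma) and OYG_10018833 (adjusted p = 0.045 by limma) passed as well, for 5 genes in all. Limma voom on the recovered reads also called 5 of the 9 genes, beside 18.1% of all genes. The call for OYG_10026148 was lost without G1-H, G2-H, M1-L, M2-L or M2-H, with log2 differences of 1.55 to 1.89, and under quantile normalization, with 0.80 (adjusted p = 0.28 by limma). It was also lost with a pseudocount of 0.01, without the filter and without the intensity trend, at adjusted p of 0.063 to 0.069 by limma. OYG_10004092 passed without M1-H, with a log2 difference of 2.34 (adjusted p = 0.020 by limma). OYG_10018833 passed without G2-H, with 2.08 (adjusted p = 0.028 by limma), and without M1-H, with 1.99 (adjusted p = 0.042 by limma). Both also passed with a pseudocount of 1, at adjusted p of 0.040 and 0.049 by limma, and OYG_10004092 with a minimum mean of 5 RPKM (0.045) and with tissue-specific terms averaged (0.029). The calls for OYG_10018834 and OYG_10025077 held under each alternative run. Hemocyte markers, 6 genes of which none was at 0 in all libraries, summed to 172 to 260 RPKM in the gill and 229 to 349 in the mantle. Of the 5 tested, 1 was called higher and 1 lower in the mantle by limma, beside 15.7% of all genes in either direction. The part of the hemocyte markers in the tissue difference was not tested.

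The exposure comparison set the 4 libraries of exposed oysters against the 4 of unexposed oysters. By the study's results text, each pool gave a gill and a mantle library, so the 4 libraries of a side are not 4 separate pools. The limma and limma voom fits took them as independent. The 4 abundant extracellular genes were at lower values in the exposed libraries in both tissues, and the Mn SOD was at higher values, but no SOD gene passed in the fit to RPKM, in which 0.00497% of all genes, a single gene, passed at all. Without adjustment, 5 of the 9 genes had p under 0.05 by limma, beside 2565 of the 20123 genes tested. Limma voom on the recovered reads called 4 of the 9, beside 0.308% of all genes.

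OYG_10018833 showed the largest exposed minus unexposed difference among the 4 abundant genes, -3.62 ± 0.49 (SE) on the log2 scale, with an adjusted p of 0.13 by limma and 0.025 by limma voom. The unexposed over exposed ratio of its RPKM was 35.0 for the L and 5.83 for the H libraries of the gill, and 15.2 and 7.41 for those of the mantle. It ranked 31 from the lowest among the log2 differences of 20123 genes.

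OYG_10004092 had an exposed minus unexposed log2 difference of -2.79 ± 0.53 (adjusted p = 0.15 by limma and 0.0496 by limma voom). OYG_10026148 had -2.19 ± 0.44 (adjusted p = 0.15 by limma and 0.0496 by limma voom), with an unexposed over exposed ratio of 15.3 and 3.58 in the gill L and H libraries and of 3.27 and 2.44 in those of the mantle. OYG_10018834 had -2.06 ± 0.34 (adjusted p = 0.15 by limma and 0.0490 by limma voom). The voom calls of these 3 genes lay close to the threshold of 0.05.

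OYG_10000265 was at least 24.8-fold lower in G2-L than in G1-L, with 3 reads taken as the limit for the library at 0. Its G1-H value was 3.72 times that of G2-H, and the M1 over M2 ratios were 3.53 in L and 1.16 in H. The fitted log2 difference of -3.30 ± 1.49 (adjusted p = 0.40 by limma) depends on the pseudocount, and with G2-L set to 3 reads it was -2.13.

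The 5 extracellular genes had a median exposed minus unexposed log2 difference of -2.79, or -2.19 with OYG_10000265 set to 3 reads in G2-L, beside -0.07 over all genes and 0.25 over the other 4 SOD genes. All 4 exposed libraries were below all 4 unexposed ones for 3 of the 5 extracellular genes and none of the 4 others, beside 3.62% of all genes. In the gill both exposed libraries were at least 2-fold below both unexposed ones for 5 of the 5 extracellular genes, beside 2.95% of all genes. In the mantle this held for 4 of the 5, beside 2.41%, and in both tissues at once for 4 of the 5, beside 0.298%.

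**Figure D3:**
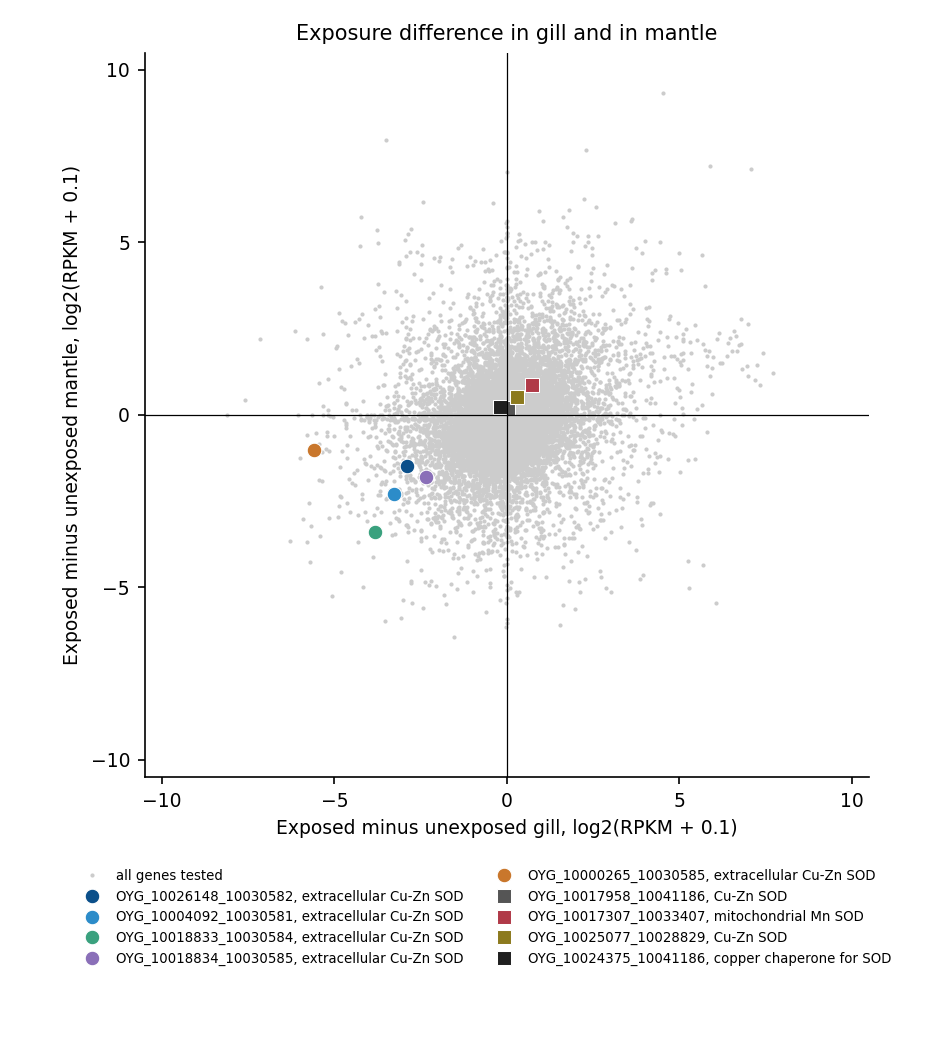
Exposed minus unexposed difference in log2(RPKM + 0.1) in the gill (horizontal axis) and in the mantle (vertical axis), with grey points for the 20123 genes tested, circles for the extracellular and squares for the other superoxide dismutase genes. The 5 circles lie at negative values on both axes, and OYG_10000265 is farthest to the left because of 0 reads in G2-L.

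Within the gill, with the spread shared by both tissues, the log2 differences of the 4 abundant extracellular genes ran from -3.83 ± 0.60 for OYG_10018833 to -2.33 ± 0.45 for OYG_10018834. No SOD gene passed (adjusted p of 0.17 to 0.98 by limma), beside 0.0845% of all genes. Unadjusted, 6 of the 9 SOD genes and 2126 of all genes had p under 0.05, and limma voom called 0 of the 9 and 0.0149% of all genes. The values of OYG_10026148 without G2-L or G1-L and without G2-H or G1-H were -1.84 and -3.94, so the size rested on which pool was kept.

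Within the mantle the log2 differences of the 4 abundant genes ran from -3.41 ± 0.60 for OYG_10018833 to -1.50 ± 0.50 for OYG_10026148. No SOD gene passed in the RPKM fit, beside 0.00497% of all genes, while 5 of the 9 had an unadjusted p under 0.05, as did 1864 of all genes. Limma voom called 1, OYG_10018833 (adjusted p = 0.036), beside 0.263% of all genes. The mantle difference minus the gill difference was positive for all 9 genes, 1.39 ± 0.71 for OYG_10026148 (adjusted p = 0.74 by limma), and none of the 9 passed this test, nor did any other gene (0.0%), by limma or by limma voom. Unadjusted, 0 of the 9 and 1233 of all genes had p under 0.05.

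Markers of other cell types were summed in the same libraries. The hemocyte list was at 199 to 259 RPKM in the unexposed and 172 to 260 in the exposed gill, and at 229 to 234 and 230 to 349 in the mantle. The cilia list was at 3736 to 3867 and 2773 to 4156 in the unexposed and exposed gill, so the ranges of both lists overlapped there. The digestive gland list of 34 genes was at 80.9 to 102 and 77.7 to 90.7 RPKM in the unexposed and exposed gill and at 147 to 185 and 90.3 to 142 in the mantle. The gonad list of 11 genes, 1 of them at 0 throughout, was at 67.8 to 85.3 in the unexposed and 87.2 to 101 in the exposed libraries. In the mantle the digestive gland and muscle lists were lower and the shell-forming list higher in the exposed libraries, without overlap. The muscle list was at 4258 to 5909 in the unexposed and 2931 to 3509 in the exposed mantle. Of the 60 shell-forming genes, 2 were at 0 throughout. The part of the hemocyte, cilia, muscle, digestive gland, gonad and shell-forming lists in the exposure difference was not tested.

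The Cu class comparison set high Cu against low Cu oysters, again with the gill and mantle libraries of a pool taken as independent. Over all 8 libraries no SOD gene passed, and neither did any other gene (0.0% by limma and by limma voom), while 2 of the 9 SOD genes and 2146 of all genes had an unadjusted p under 0.05 by limma. The 4 abundant extracellular genes had high minus low log2 differences of 0.76 to 0.83, with 0.81 ± 0.34 (adjusted p = 0.47 by limma) for OYG_10018834. The value of OYG_10000265, 1.59 ± 1.49 (adjusted p = 0.65 by limma), rests on 0 reads in G2-L; it was 0.41 with G2-L set to 3 reads and -0.07 by limma voom. Among the other genes OYG_10025077 had 0.59 ± 0.21 (adjusted p = 0.47 by limma), beside a median of 0.15 over all genes. This gene was higher in the H library of each of the 4 pairs, a pattern not counted over all genes.

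The extracellular genes differed between high and low Cu mainly in 1 of the 4 pairs of libraries, the exposed gill. The G2-H over G2-L ratio was 4.21 for OYG_10026148, 7.50 for OYG_10004092, 7.84 for OYG_10018833 and 4.49 for OYG_10018834, and OYG_10000265 was at least 8.24-fold higher in G2-H. In that pair 5 of the 5 extracellular genes were at least 2-fold higher in G2-H, as was 1 of the 4 others, the copper chaperone, beside 13.8% of all genes in that direction and 27.1% in either direction. The H over L ratio of OYG_10026148 was 0.985 in G1, 1.21 in M1 and 1.63 in M2.

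At least 2-fold differences in either direction were seen for 0 of the 9 genes in G1, beside 19.5% of all genes, for 2 in M1, beside 24.5%, and for 0 in M2, beside 41.3%. The M1 genes were OYG_10000265, 223 reads in M1-L against 81 in M1-H, and the copper chaperone, 4 reads against 15. In the unexposed mantle OYG_10004092 and OYG_10018833 were also lower in the high Cu library, with H over L ratios of 0.570 and 0.679. Exact binomial 95% intervals of the log2 ratio, which cover counting error only, were 1.98 to 2.17 in G2 and -0.05 to 0.01 in G1 for OYG_10026148. With 1 library per condition, the difference between G2 and the other pairs was not tested.

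**Figure D4:**
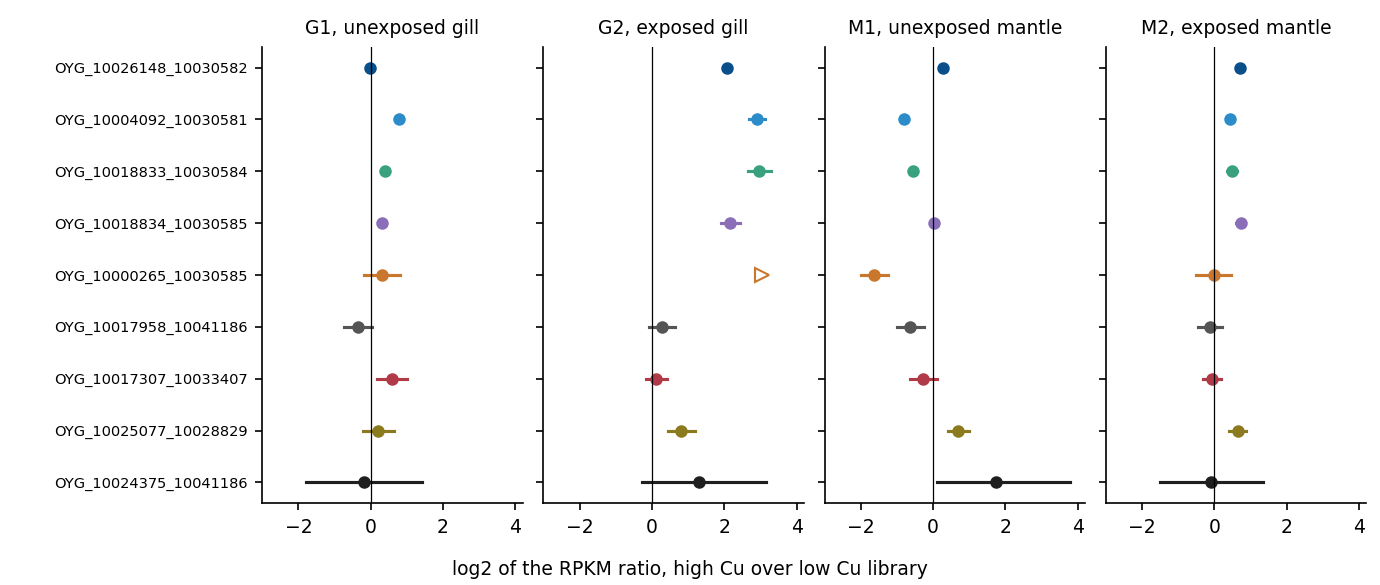
Log2 ratio of RPKM in the high Cu library over the low Cu library for the 9 superoxide dismutase genes tested, in each of the 4 pairs, with exact binomial 95% intervals of the read counts as lines; the open triangle is the lower limit for OYG_10000265 in G2. The extracellular genes sit at or above 2.07 in G2 and between -1.62 and 0.79 in the other pairs.

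Within the gill the high minus low log2 difference was 1.85 ± 0.55 for OYG_10004092 (adjusted p = 0.94 by limma) and 1.03 ± 0.50 for OYG_10026148 (adjusted p = 0.97 by limma). None of the 9 passed, beside 0.00497% of all genes, while 4 of the 9 and 933 of all genes had an unadjusted p under 0.05, and limma voom called 0 (0.0%). Without G2-L or G2-H, which leaves the G1 pair alone, the value of OYG_10026148 was -0.02. Within the mantle the 5 extracellular genes had values of -0.82 to 0.49, none passed (0.0% of all genes by limma and by limma voom), and 0 of the 9 against 2446 of all genes had an unadjusted p under 0.05.

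The Mn SOD OYG_10017307, the mitochondrial form, had 58.3 (low Cu) and 87.3 (high Cu) RPKM in the unexposed gill, and 114 and 125 after exposure. Mantle values were 94.4 and 78.0 in set 1 and 161 and 154 in set 2, low Cu first. All 4 exposed libraries were above all 4 unexposed ones, the reverse of 3 of the 5 extracellular genes. Among the 9 SOD genes tested only the Mn SOD showed this pattern, beside 1.65% of all genes. The log2 difference was 0.81 ± 0.19 (adjusted p = 0.17 by limma and 0.14 by limma voom), with values of 0.74 in the gill and 0.87 in the mantle. It rested on 81 to 253 reads per library.

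OYG_10017958, the Cu-Zn SOD with an implied coding length of 471 bp, varied least among the 9, from 99.02 RPKM in M1-H to 153 in M1-L, a ratio of 1.54. Its differences were 0.20 ± 0.20 for tissue (adjusted p = 0.55 by limma) and 0.11 ± 0.20 for exposure (adjusted p = 0.85 by limma). The exposure value changed sign under quantile normalization and without M1-H.

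The unexposed gill held 13.1 (low Cu) and 15.2 (high Cu) RPKM of OYG_10025077, and the exposed gill 12.98 and 22.7. The mantle held 24.8 and 40.1 unexposed and 35.8 and 56.2 exposed, low Cu first. All 4 mantle libraries were above all 4 gill libraries, a pattern not counted over all genes. The exposure difference of OYG_10025077 was 0.39 ± 0.21 (adjusted p = 0.48 by limma).

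The copper chaperone OYG_10024375, which in vertebrates and yeast loads copper into cytosolic Cu-Zn SOD, was at 3.24 to 10.9 RPKM, from 4 to 15 reads. Its exposure difference of 0.01 ± 0.42 (adjusted p = 0.99 by limma) and its tissue difference of 0.20 ± 0.42 (adjusted p = 0.80 by limma) each changed sign when single libraries were left out. OYG_10021360 and OYG_10021362, left out by the filter, had 0 to 7 and 0 to 5 reads per library. OYG_10021360 had 1 read in all the gill libraries and 3 to 7 in each mantle library, and OYG_10021362 had no read in the gill and 2 (low Cu) and 0 (high Cu) in the unexposed and 5 and 3 in the exposed mantle.

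**Figure D5:**
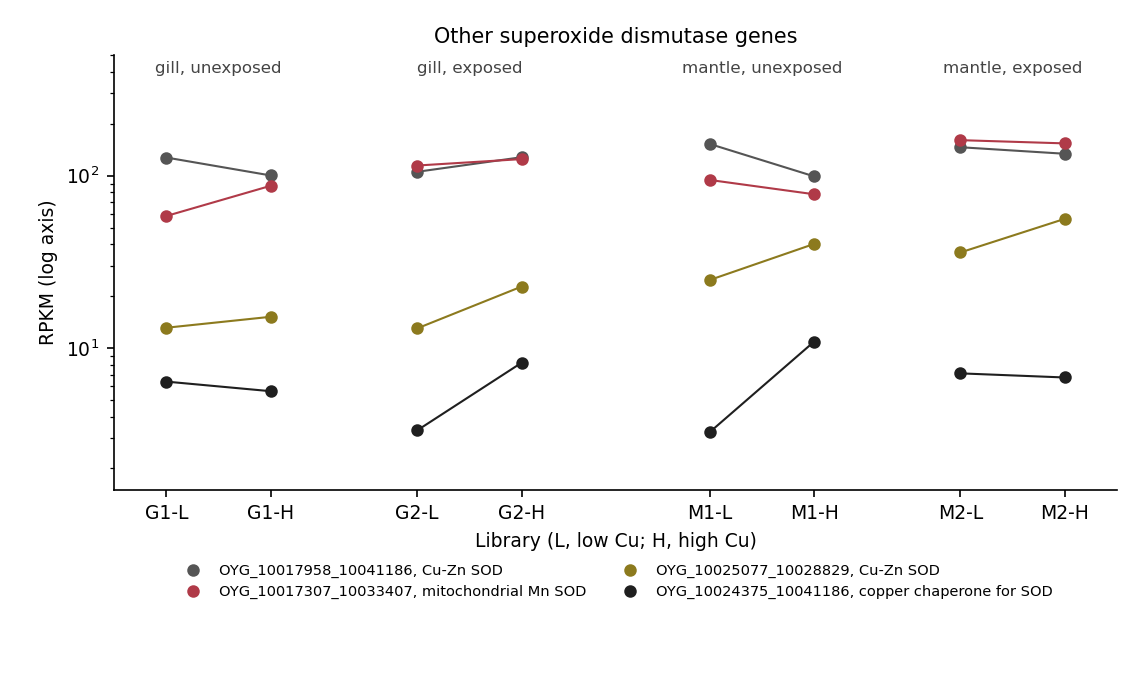
RPKM on a log axis of the 4 other superoxide dismutase genes tested, in each library, with lines joining the low and high Cu libraries of 1 tissue and set. The Mn form is higher in the exposed libraries (114 to 161 RPKM) than in the unexposed ones (58.3 to 94.4), and OYG_10025077 is higher in the mantle.

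Over the 8 libraries the log2 levels of the extracellular genes followed each other, with Pearson correlations of 0.85 to 0.99 over 10 pairs of genes. The correlation of an extracellular gene with another SOD gene was -0.55 to 0.47 over 20 pairs, and for the Mn SOD it was -0.55 to -0.18. The libraries share tissue and exposure, so these are descriptions of the profiles and not independent points.

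The 5 genes outside the family whose profile was most like the mean of the extracellular genes were OYG_10026431_10028018, a hypothetical protein, OYG_10011579_10041728, annotated as allene oxide synthase-lipoxygenase, OYG_10012211_10037880, a perlucin, OYG_10017191_10018319, a transmembrane protein 86A, and OYG_10001489_10027292, a putative aquaporin-10. Their Pearson correlations over the 8 libraries were 0.98 to 0.99. The mean was of log2(RPKM + 0.1) with equal weight for the 5 extracellular genes. In G2-L it was lowered by OYG_10000265, with 0 reads, by an amount that depends on the pseudocount. Likeness to the abundant genes alone was not computed. OYG_10026431 had 532 and 709 RPKM in the unexposed gill, 37.7 and 264 in the exposed gill, 1318 and 723 in the unexposed mantle and 312 and 510 in the exposed mantle, low Cu first. It had its lowest value in G2-L and its highest in M1-L, as did OYG_10004092. The perlucin and the aquaporin were at 7.38 and 10.01 RPKM at most and at 0 in G2-L.

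Enzymes that take up the product of the SOD reaction were described from a list of 14 genes for catalase, peroxiredoxins and glutathione peroxidases, 13 of them tested. Their summed RPKM was 1115 to 1249 in the unexposed and 1008 to 1300 in the exposed libraries, and none of the 13 passed for exposure by limma or by limma voom (0 with an unadjusted p under 0.05 by limma). Their median exposure difference was 0.15, beside -0.07 over all genes. For tissue, 1 of the 13 rose in the mantle and 1 fell, a share close to the 15.7% of all genes, and the one that rose was the epididymal secretory glutathione peroxidase OYG_10025106_10024945, at 49.4 to 87.9 RPKM in the gill and 192 to 276 in the mantle (log2 difference 1.80 ± 0.20, adjusted p = 0.0012 by limma). The most abundant of the list, the non-selenium glutathione peroxidase OYG_10008877_10023197, was at 368 to 472 RPKM in all libraries, and the mitochondrial peroxiredoxin-5 OYG_10027917_10032480 was at 93.7 to 213.

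Of 7 genes that supply glutathione and reduced thioredoxin, none passed for tissue or exposure by limma or limma voom, with 0 at an unadjusted p under 0.05 by limma in either. Thioredoxin reductase 3, OYG_10022651_10037692, was at 90.7 to 101 RPKM in the unexposed and 98.9 to 137 in the exposed libraries. The glutamate-cysteine ligase catalytic subunit OYG_10018391_10020566, which makes the first step of glutathione synthesis, was at 67.5 to 114, and glutathione synthetase OYG_10022009_10037895 was at 43.9 to 113.

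A list of 18 genes held NADPH oxidases, dual oxidases and xanthine dehydrogenase, enzymes that can form superoxide or hydrogen peroxide, and maturation factors of dual oxidases. Of these, 16 were tested and none passed for exposure by limma or limma voom (2 with an unadjusted p under 0.05 by limma, both at lower values). For tissue 1 of the 16 was called higher in the mantle by limma, beside 15.7% of all genes. By limma voom 3 of the 16 were called, a share close to the 18.1% of all genes. The dual oxidase maturation factors OYG_10023210_10033598 and OYG_10023211_10033598 were at 140 to 203 and 76.6 to 224 RPKM, and the dual oxidase OYG_10026683_10032363 was at 13.8 in M2-L and 47.4 to 129 in the other libraries.

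Of 12 genes for copper handling, 11 were tested and 2 rose in the mantle, a share close to the 15.7% of all genes. None passed for exposure by limma or limma voom (6 with an unadjusted p under 0.05 by limma, 5 of them at higher values, beside 2565 of the 20123 genes tested). The list summed to 315 to 457 RPKM in the unexposed and 532 to 1327 in the exposed libraries, with a median exposure difference of 1.20 on the log2 scale. The metallothionein OYG_10021194_10012460, one of the small cysteine-rich metal-binding proteins, was at 293 RPKM in G2-L and 616 in M2-L and at 38.1 to 78.9 in the other 6 libraries. The metallothionein OYG_10012042_10029507 was at 257 in G2-H and 557 in M2-H, at 209 in M2-L and at 30.4 in G2-L, the lowest value. Ceruloplasmin OYG_10006923_10010814, a copper-binding ferroxidase in vertebrates, was at 50.7 to 112 RPKM in the gill and 92.7 to 160 in the mantle and was among the genes that rose in the mantle (0.74 ± 0.19, adjusted p = 0.036 by limma). Over the exposed pairs, OYG_10021194 was higher in the L library and the extracellular SOD genes other than OYG_10000265 were higher in the H library.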

How the data were processed

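Per the study's methods, RNA was extracted separately from the 6 samples of each group, and 8 libraries were sequenced. The study's results text has the tissues pooled, so the step at which pooling was done is not clear. The authors used TopHat2 with at most 1 mismatch for mapping against the C. gigas genome and named Cufflinks. Exact versions are not given in the sources used here. The deposited values are RPKM per gene, and a dash was read as 0. Whole reads were recovered from the RPKM steps. The study's methods give no model across libraries. Here limma 3.58.1 (R 4.3.3) was fitted to log2(RPKM + 0.1) of the 20123 genes averaging 1 RPKM or more, with tissue, set and Cu class as additive terms (4 residual degrees of freedom) or with set and Cu class within tissue (2). Fold changes are on that scale, which as a rule understates changes of low genes; for OYG_10000265, with 1 library at 0, it gave larger values than a limit of 3 reads or voom. P-values were two-sided and adjusted by Benjamini-Hochberg over all genes, with a threshold of 0.05. They are set against what the fitted terms left over. With 1 library per condition, this holds effects of combinations of factors outside the fit as well as spread between pools. The deviations of the gill and mantle libraries of 1 pool from their tissue means correlated across genes with r of 0.0925 to 0.252, against -0.203 to 0.126 for libraries of different pools. That the pools share oysters comes from the study's results text, and the wording of its methods leaves this open. The pool block was run as an alternative. Scripts were tested on simulated data. The text names every SOD gene, the 3 most abundant genes of each of 4 companion lists and the 5 genes most correlated with the extracellular mean. Members and lists were chosen with earlier results of these data known. None of the 11 SOD genes matched the RefSeq gene table, so genome positions were not analysed here. Alternatives were pseudocounts of 1 and 0.01, other filters, median centring, quantile normalization, no trend, voom, other models and leaving out each library.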

Additional observations from a re-analysis of the deposited data

Results flagged for a closer look

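For OYG_10000265 the high minus low Cu difference was positive in both gill pairs (0.30 and 7.70 on the log2(RPKM + 0.1) scale) and negative in both mantle pairs (-1.62 and -0.02), so the mean mantle difference minus the mean gill difference was -4.82. The G2 value rests on 0 reads in G2-L against 26 in G2-H and depends on the pseudocount, and the ratio there was at least 8.24. For the Mn SOD OYG_10017307 the gill values were 0.58 and 0.12 and the mantle values -0.28 and -0.06, a difference of -0.52. In neither gene was the difference between tissues tested.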

How the results depend on the processing

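Without the filter, 3 SOD genes passed for tissue although OYG_10026148 was lost, so a gene outside the 9 passed there. The number of SOD genes passing for tissue, 3, was 5 with a pseudocount of 1, with limma voom on the recovered reads and with the replicate block of oyster pools. The number was 4 with a minimum mean of 5 RPKM, 2 with a pseudocount of 0.01 and 2 to 5 when single libraries were left out. For exposure it was 4 with voom against 0, and within the mantle 1 with voom against 0. For the 5 extracellular genes the exposure difference was negative and the tissue difference positive under every alternative run. The block changed the tissue calls of OYG_10004092 and OYG_10018833 and no other tissue call of an SOD gene. It could not be run for exposure or Cu class, which do not vary within a pool.

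Signs that changed all belong to differences that did not pass. Quantile normalization gave -0.00015 (exposure) and -0.033 (exposure in gill) for OYG_10017958, -0.016 (mantle minus gill in the exposure difference) for OYG_10017307, and 0.29 and 0.27 (Cu class in mantle) for OYG_10004092 and OYG_10018833. Voom gave -0.014 and -0.0059 (exposure, overall and in mantle) for OYG_10024375 and -0.069 (Cu class) for OYG_10000265, and median centring -0.071 (Cu class) for OYG_10017307. Leaving out single libraries gave these ranges. Tissue: OYG_10024375 -0.044 to 0.51. Exposure: OYG_10017958 -0.012 to 0.25 and OYG_10024375 -0.30 to 0.28. Exposure in gill: OYG_10017958 -0.28 to 0.35, OYG_10025077 -0.013 to 0.58 and OYG_10024375 -0.92 to 0.54. Exposure in mantle: OYG_10017958 -0.064 to 0.44 and OYG_10024375 -0.68 to 1.11. Mantle minus gill in the exposure difference: OYG_10004092 -0.083 to 2.03, OYG_10018833 -0.87 to 1.72, OYG_10018834 -0.39 to 1.47, OYG_10017958 -0.17 to 0.46, OYG_10017307 -0.099 to 0.36, OYG_10025077 -0.072 to 0.52 and OYG_10024375 -0.49 to 1.30. Cu class: OYG_10000265 -0.51 to 2.96 and OYG_10017307 -0.047 to 0.20. Cu class in gill: OYG_10026148 -0.021 to 2.07, OYG_10017958 -0.35 to 0.28 and OYG_10024375 -0.18 to 1.28. Cu class in mantle: OYG_10004092 -0.81 to 0.45, OYG_10018833 -0.56 to 0.48 and OYG_10024375 -0.078 to 1.72. The cause was not tested. Depth limits OYG_10024375, OYG_10021360 and OYG_10021362, which had at most 15 reads in a library.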
